A study of Mus musculus with 9 samples.

Results

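The arcuate nucleus and the ventromedial nucleus (VMH) of the tuberal hypothalamus each depend on a small set of transcription factors, and 8 of these genes are described here: Nr5a1, Fezf1, Nr5a2, Nkx2-1, Tbx3, Isl1, Prdm12 and Bsx. They were chosen by gene symbol, as every row of the authors' log2 CPM table with 1 of these names and every transcript of these genes in the transcript tables, summed per gene. All 8 were among the 35975 genes with a quantified transcript and all 8 were among the 15340 genes tested. RNA sequencing was performed on the mediobasal hypothalamus (MBH), a dissection that holds both nuclei, of male wild-type C57Bl/6 mice at P21, postnatal day 21 and the age of weaning. Dams of the control group (CTRL) drank water, and dams of the emulsifier group (Emul) drank water with 1% carboxymethyl cellulose (CMC) and 1% polysorbate 80 (P80) before mating and through gestation and lactation. There were 4 CTRL and 5 Emul libraries, and the study's methods name 4 control and 5 emulsifier litters as the source of the RNA. All mice of both groups carried the same genotype, and no gene was targeted. Pups stayed with their dams until weaning, so exposure through the dam and direct drinking by the pups cannot be told apart. The tissue is a bulk dissection, so fewer cells of a type and less RNA per cell cannot be told apart either.

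Transcription factors of this group act in sequence and in combination. Nkx2-1, a homeodomain factor, marks the ventral hypothalamus from early development. Nr5a1, the nuclear receptor also called SF-1, and Fezf1, a zinc-finger factor, are known for the formation and maintenance of the VMH. Nr5a2, the nuclear receptor also called LRH-1, is the closest relative of Nr5a1 and binds the same DNA motif. Isl1, a LIM homeodomain factor, Tbx3, a T-box factor, and Prdm12, a PR-domain zinc-finger factor, are known for the identity of arcuate neurons that make pro-opiomelanocortin. Bsx, a homeodomain factor, is known for the expression of Npy and Agrp in the hunger-promoting neurons of the arcuate nucleus.

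Libraries held between 28245360 and 46067534 estimated counts, with the lowest total in CTRL 3. The label of the tissue was checked against marker lists. Of 10 VMH markers, 10 were tested, and their summed level ranged from 356.2 to 374.9 TPM in CTRL and from 337.1 to 426.3 TPM in Emul. Of 11 arcuate peptide and enzyme genes, 10 were tested, with summed levels of 888.2 to 1024 TPM in CTRL and 846.8 to 1045 TPM in Emul, while Kiss1 was below the filter. Markers of adjoining regions were present too, some at levels as high as the arcuate genes or higher. The summed level of 3 lateral hypothalamus markers was 1489 to 1684 TPM in CTRL and 866.7 to 1504 TPM in Emul. That of 5 paraventricular markers was 602.9 to 1684 TPM in CTRL and 428.5 to 1117 TPM in Emul. The summed level of 6 thalamus markers was 61.8 to 87.8 TPM in CTRL and 55.3 to 175.9 TPM in Emul, that of 6 mammillary markers 27.7 to 65.3 and 44.9 to 77.5 TPM, and that of 12 pituitary markers 24.3 to 30.9 and 18.8 to 29.3 TPM.

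Levels of different genes were compared in TPM, which divides by transcript length. Isl1 and Nkx2-1 were the most abundant of the 8 factors, at 25.7 ± 5.35 TPM (SD, n = 9) and 24.9 ± 3.36 TPM (SD, n = 9). Isl1 lay above Nkx2-1 in 3 of 9 libraries, so these neighbours did not separate when all transcripts were summed. The Isl1 sum includes Isl1-203, a transcript of 676 bases that retains an intron. It held a mean of 25.5% of Isl1 TPM for CTRL and 29.1% for Emul. The coding transcripts Isl1-201 and Isl1-202 reached at most 16.9 and 2.92 TPM, even together below the lowest Nkx2-1 level of 20.8 TPM. Nkx2-1 lay above Nr5a1 in 9 of 9 libraries. Nr5a1 followed at 12.7 ± 1.28 TPM (SD, n = 9) and Fezf1 at 10.9 ± 2.32 TPM (SD, n = 9), with Nr5a1 the higher in 8 of 9 libraries. Bsx stood at 9.30 ± 1.202 TPM (SD, n = 9), below Fezf1 in 7 of 9 libraries, and Tbx3 at 6.90 ± 0.703 TPM (SD, n = 9). Prdm12 and Nr5a2 were the least abundant, at 2.31 ± 0.826 TPM (SD, n = 9) and 1.21 ± 0.202 TPM (SD, n = 9). From Bsx downwards, each gene lay above the next in 9 of 9 libraries. Estimated counts per library were only 82.0 to 112 for Nr5a2 and 70.5 to 147 for Prdm12, so counting error weighed more on these than on the other factors.

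Maternal emulsifiers were compared with control by limma-voom over all 15340 genes tested, and every log2 fold change below is Emul over CTRL. Fezf1 and Isl1 were lower in Emul at an unadjusted p-value under 0.05. No factor was higher, and no factor passed after Benjamini-Hochberg adjustment over all genes tested. The count of lower members, 2 of 8, stands beside 8.99% of all genes tested that were lower at the same threshold, and the count of higher members, 0 of 8, beside 6.84%. With a change above 1.5-fold required as well, 0 of 8 members passed, against 0.469% of all genes. The study's methods name this fold with a p-value and a legend names it with an FDR, and no member passed either way. After adjustment 0 of 8 members and 0.117% of all genes passed. By edgeR, too, 0 of 8 passed after adjustment. By DESeq2 no member with an adjusted p-value passed, and Nr5a2 and Prdm12 were given none. At an unadjusted p-value under 0.05, 2 of 8 were lower by either tool. Of all genes, 1371 of 15339 were lower by edgeR and 1257 of 15340 by DESeq2. The count of members with every Emul library below every CTRL library was 0 of 8, against 3.8% of all genes. A share of 2 in 8 genes is too few to set the group apart from the background. The median log2 fold change of the 8 genes was -0.04, beside 0.00 for all genes tested. A negative sign was held by 6 of 8, beside 7552 of all 15340 genes tested.

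**Figure D1:**
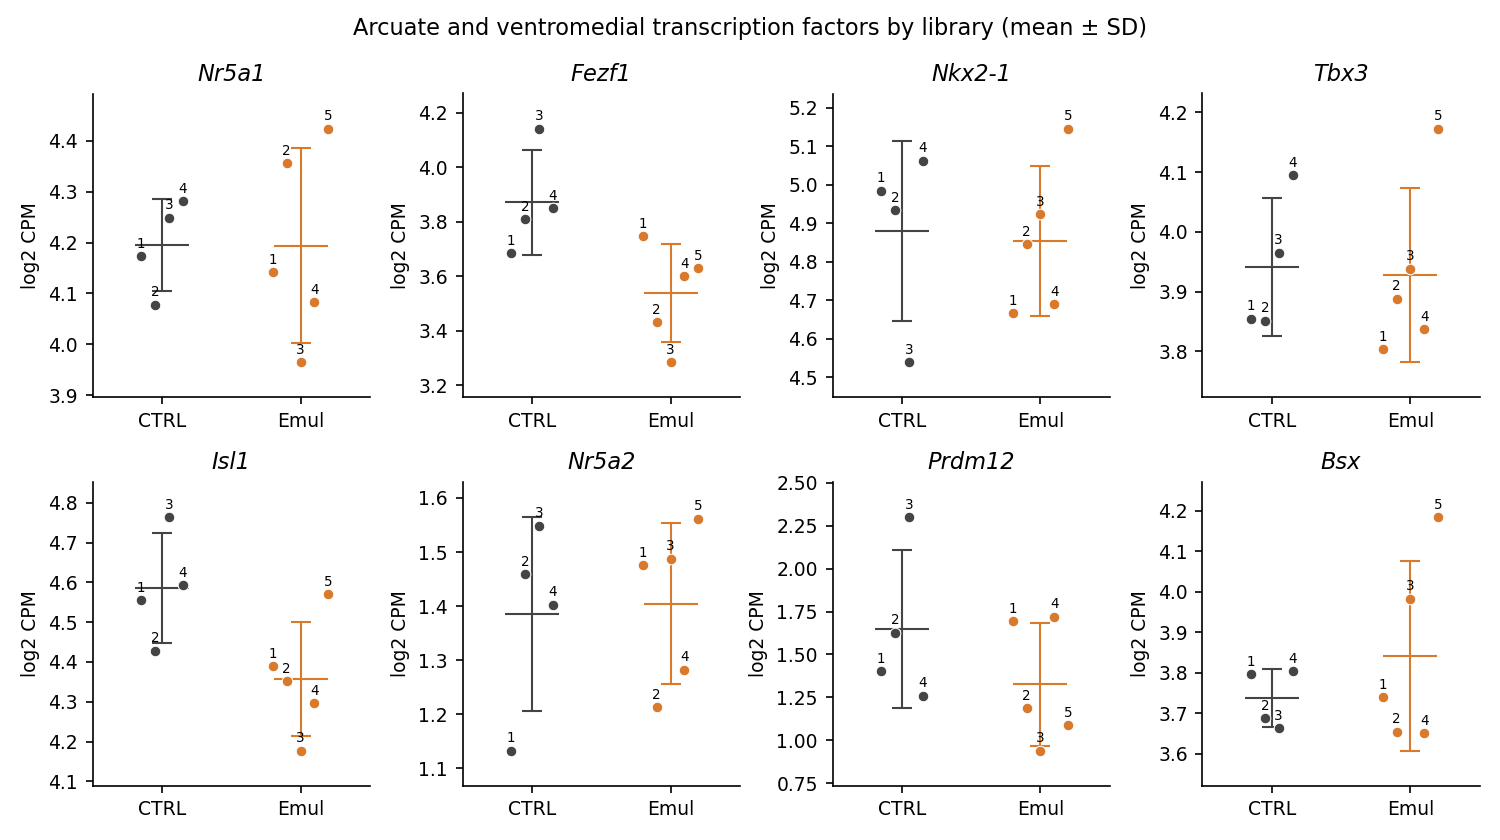
Log2 CPM (vertical axis) of each of the 8 factors in 4 CTRL and 5 Emul libraries (horizontal axis), with points numbered by replicate and bars at the mean ± SD. For Fezf1 and Isl1 most Emul libraries lie below the CTRL libraries, with CTRL 3 highest and Emul 3 lowest, and for the other factors the groups lie over each other. The vertical axes differ between panels and do not start at 0.

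Fezf1 (chromosome 6, 23245044 to 23248362, minus strand, mm10) has 1 annotated transcript. Its log2 CPM in CTRL 1 to 4 was 3.68, 3.81, 4.14 and 3.85, and in Emul 1 to 5 it was 3.75, 3.43, 3.28, 3.60 and 3.63. CTRL 3 was the highest and Emul 3 the lowest library, and the groups overlapped only because Emul 1 lay above CTRL 1. The CTRL mean was 3.87 ± 0.19 (SD, n = 4) and the Emul mean 3.54 ± 0.18 (SD, n = 5). The log2 fold change was -0.32 (SE 0.10, 95% interval -0.54 to -0.095), a level 0.80 times that of CTRL, with an unadjusted p = 0.0089 and an adjusted p = 0.18 from limma-voom. The two-sided exact permutation test of the group means gave p = 0.032, where 0.0079 is the lowest value that 4 against 5 libraries allow. Without both CTRL 3 and Emul 3 the log2 fold change was -0.18 (unadjusted p = 0.045, adjusted p = 0.40 from limma-voom). In TPM the control mean was 12.7 ± 1.98 (SD, n = 4) and the Emul mean 9.38 ± 1.27 (SD, n = 5).

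Isl1 (chromosome 13, 116298281 to 116309689, minus strand, mm10) has 5 annotated transcripts. Summed over these, its log2 CPM was 4.56, 4.43, 4.76 and 4.59 in CTRL 1 to 4 and 4.39, 4.35, 4.18, 4.30 and 4.57 in Emul 1 to 5. Again CTRL 3 was the highest and Emul 3 the lowest library, and Emul 5 lay within the range of CTRL. CTRL had a mean of 4.59 ± 0.14 (SD, n = 4) and Emul of 4.36 ± 0.14 (SD, n = 5). The log2 fold change was -0.22 (SE 0.078, 95% interval -0.39 to -0.050), or 0.86 times the CTRL level, with an unadjusted p = 0.015 and an adjusted p = 0.21 from limma-voom, and the exact permutation test gave p = 0.048. Without both CTRL 3 and Emul 3 the log2 fold change was -0.13 and no longer passed (unadjusted p = 0.094, adjusted p = 0.48 from limma-voom). In TPM, which gives short transcripts more weight, the mean of Isl1 was 29.6 ± 5.68 (SD, n = 4) for CTRL and 22.7 ± 2.60 (SD, n = 5) for Emul.

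Nr5a1 (chromosome 2, 38692656 to 38714542, minus strand, mm10), the defining factor of the VMH, was at nearly equal levels. In CTRL 1 to 4 its log2 CPM was 4.17, 4.08, 4.25 and 4.28, and in Emul 1 to 5 it was 4.14, 4.36, 3.97, 4.08 and 4.42. The Emul libraries lay on both sides of the CTRL range. The log2 fold change was -0.0020 (SE 0.089, 95% interval -0.20 to 0.19, adjusted p = 0.996 from limma-voom), and its sign turned under several alternatives. Nr5a2 (chromosome 1, 136842571 to 136960448, minus strand, mm10) had a log2 CPM of 1.13, 1.46, 1.55 and 1.40 in CTRL and of 1.48, 1.21, 1.49, 1.28 and 1.56 in Emul. The groups overlapped, with CTRL 1 the lowest library, and the log2 fold change was 0.02 (SE 0.12, 95% interval -0.25 to 0.28, adjusted p = 0.96 from limma-voom). These intervals leave room for changes of either sign, wider for Nr5a2 than for Nr5a1.

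Nkx2-1 (chromosome 12, 56531958 to 56536908, minus strand, mm10) had a log2 CPM of 4.98, 4.93, 4.54 and 5.06 in CTRL and of 4.67, 4.85, 4.92, 4.69 and 5.15 in Emul. CTRL 3, the highest library for Fezf1 and Isl1, was the lowest for this gene. The log2 fold change was -0.05 (SE 0.11, 95% interval -0.29 to 0.18, adjusted p = 0.85 from limma-voom). Tbx3 (chromosome 5, 119670669 to 119684724, plus strand, mm10) stood at 3.85, 3.85, 3.96 and 4.10 in CTRL and at 3.80, 3.89, 3.94, 3.84 and 4.17 in Emul, again on the log2 CPM scale. Its groups overlapped nearly in full, and its log2 fold change of -0.02 (SE 0.080, 95% interval -0.20 to 0.15, adjusted p = 0.93 from limma-voom) stayed within the spread of the libraries. The signs of these last values turned with single libraries left out.

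Prdm12 (chromosome 2, 31640037 to 31655795, plus strand, mm10) had the widest spread. Log2 CPM was 1.40, 1.63, 2.30 and 1.26 in CTRL 1 to 4 and 1.70, 1.19, 0.94, 1.72 and 1.09 in Emul 1 to 5. CTRL 3 stood well above every other library, and Emul 1 and Emul 4 lay above the other CTRL libraries. The log2 fold change of -0.27 (SE 0.22, 95% interval -0.75 to 0.21, adjusted p = 0.59 from limma-voom) was close in size to that of Isl1 but not larger than the spread of the libraries. It ranged from -0.40 to -0.090 with single libraries left out and was 0.0060 without both CTRL 3 and Emul 3. Bsx (chromosome 9, 40874127 to 40880057, plus strand, mm10) had a log2 CPM of 3.80, 3.69, 3.66 and 3.80 in CTRL and of 3.74, 3.65, 3.98, 3.65 and 4.18 in Emul. Emul 3 and Emul 5 lay above all CTRL libraries, and the other Emul libraries lay within or just below the CTRL range. The log2 fold change was 0.09 (SE 0.10, 95% interval -0.14 to 0.31, adjusted p = 0.72 from limma-voom).

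**Figure D2:**
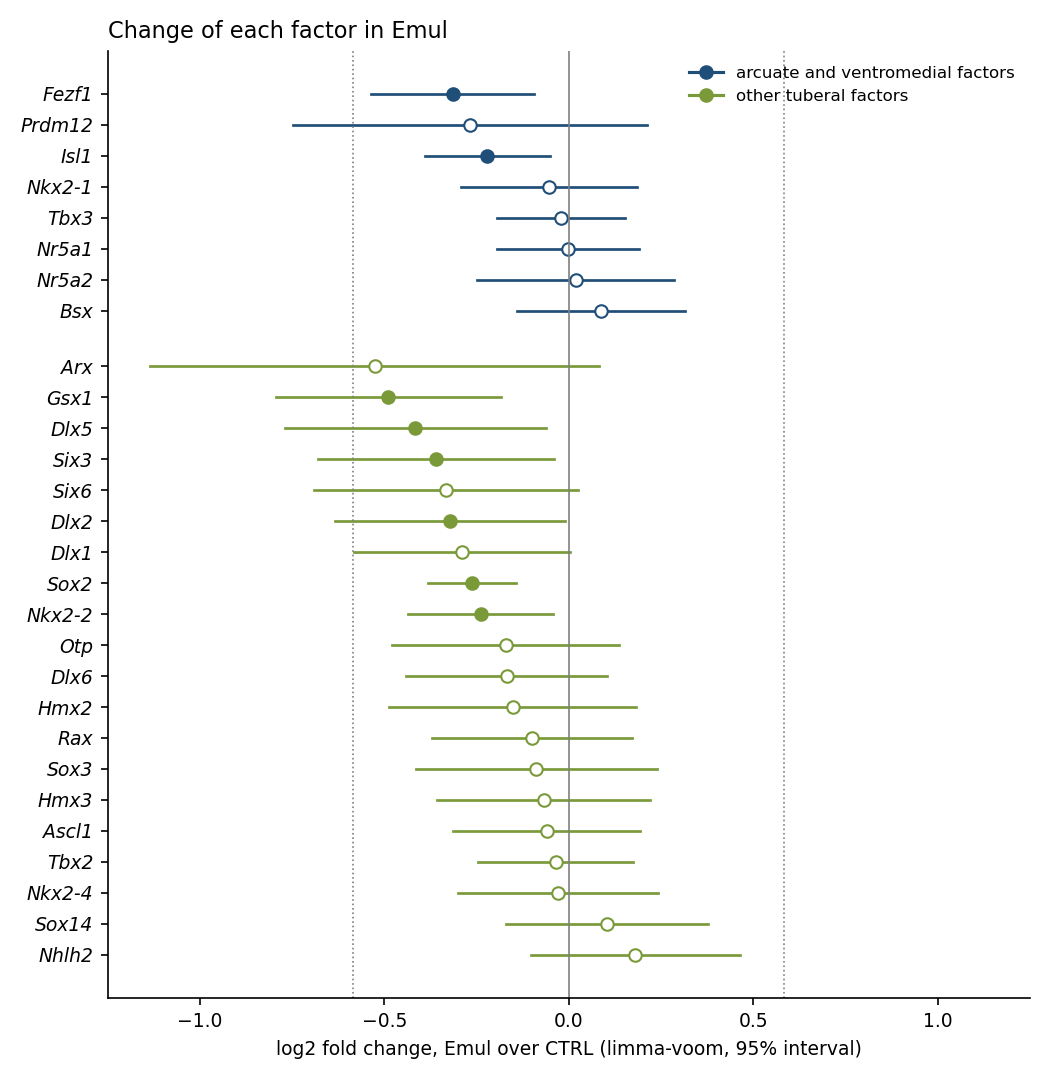
Log2 fold change of Emul over CTRL (horizontal axis) with its 95% interval for the 8 factors (blue) and for 20 other transcription factors of the tuberal hypothalamus (green), listed on the vertical axis. Filled points have an unadjusted p-value under 0.05, and dotted lines mark a 1.5-fold change. Of the 8, Fezf1 at -0.32 and Isl1 at -0.22 are filled. A negative sign is held by 18 of the 20 others, beside 7552 of all 15340 genes tested.

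Differences between members within each library do not depend on how libraries are scaled, and 5 such differences were compared after the values had been seen. Fezf1 minus Nr5a1 sets both VMH factors against each other. For CTRL this log2 difference was -0.33 ± 0.17 (SD, n = 4) and for Emul -0.66 ± 0.22 (SD, n = 5), a shift of -0.33 that did not pass (exact permutation test, p = 0.071, adjusted over the 5 differences p = 0.18). Isl1 minus Tbx3, both arcuate factors, was 0.64 ± 0.13 (SD, n = 4) for CTRL and 0.43 ± 0.13 (SD, n = 5) for Emul, a shift of -0.22 (exact permutation test, p = 0.048, adjusted p = 0.18). The shift of Isl1 minus Nkx2-1 was -0.20 (exact permutation test, p = 0.34), that of Isl1 minus Fezf1 was 0.10 (p = 0.28) and that of Prdm12 minus Isl1 was -0.09 (p = 0.70). No difference between members thus passed after adjustment, so a change particular to Fezf1 or Isl1 against the other factors was not shown.

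Both genes with lower levels have a promoter in the RefSeq table of GRCm38.p6, as do 6 of the 8 members. The 250 bases before their RefSeq start are shown because these are the members with an unadjusted p-value under 0.05, with every CCAAT box on either strand (CCAAT, or ATTGG where it lies on the other strand) in capitals, each read 5′ to 3′ along the gene. The first window is chr6:23248265-23248514 and the second is chr13:116309689-116309938, both on the minus strand. The start of Fezf1 in RefSeq differs from that in GENCODE M21, so that 98 bases of its window lie inside the gene as placed above.
Fezf1 promoter: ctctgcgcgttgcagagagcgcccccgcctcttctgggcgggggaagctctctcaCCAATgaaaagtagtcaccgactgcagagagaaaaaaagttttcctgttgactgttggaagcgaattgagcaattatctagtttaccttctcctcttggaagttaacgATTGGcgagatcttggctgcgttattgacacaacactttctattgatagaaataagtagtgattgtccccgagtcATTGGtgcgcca
Isl1 promoter: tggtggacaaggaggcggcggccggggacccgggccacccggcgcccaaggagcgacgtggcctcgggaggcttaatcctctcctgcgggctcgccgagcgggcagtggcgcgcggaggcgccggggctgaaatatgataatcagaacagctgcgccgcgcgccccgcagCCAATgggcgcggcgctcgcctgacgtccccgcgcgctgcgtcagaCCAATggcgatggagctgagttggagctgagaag
The Fezf1 window held 3 CCAAT boxes, starting 195, 87 and 12 bases before the RefSeq start, of which the last pair lies inside the GENCODE gene. The Isl1 window held 2, starting 80 and 34 bases before the RefSeq start. A CCAAT box, the letters bound by the general factor NF-Y, was present in 33.85% of 32851 promoter windows of this length. The Bsx window also held 2. The other motifs searched on both strands were the NR5A motif AAGGTCA (in 4.08% of windows), the NKX2 core CAAGTG (11.6%), the homeodomain core TAATTA (4.84%), the T-box motif GGTGTGA (3.33%) and the TATA box TATAAA (12.4%). None of these letters occurred in the Fezf1 or Isl1 window. GC content was 47.6% for Fezf1 and 71.2% for Isl1.

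Some of the factors varied together between libraries. Pearson's r and Spearman's rho of log2 CPM were computed for all 28 pairs of members over 9 libraries, with exact permutation p-values. At an adjusted p-value under 0.05 the count was 0 of 28 pairs, and 5 of 28 had an unadjusted p-value under 0.05 for r. Fezf1 and Isl1 had r = 0.85 (exact permutation p = 0.0044, adjusted p = 0.097) and rho = 0.83 (p = 0.0083, adjusted p = 0.23). Within the groups, as deviations from the group means, r was 0.71. Leaving out CTRL 3 and Emul 3, the libraries farthest from the median, lowered r to 0.48 (exact permutation p = 0.27), so the relation rests on those libraries. Fezf1 and Prdm12 had r = 0.80 (exact permutation p = 0.010, adjusted p = 0.097) and rho = 0.60 (p = 0.097, adjusted p = 0.41), and r = 0.31 without the same libraries.

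Opposite variation was seen between Nkx2-1 and Prdm12. They had r = -0.80 (exact permutation p = 0.0083, adjusted p = 0.097) and rho = -0.67 (p = 0.059, adjusted p = 0.41), and r fell to -0.54 without CTRL 3 and Emul 1. Within the groups r was -0.91. Nkx2-1 and Bsx had r = 0.69 (exact permutation p = 0.036, adjusted p = 0.20) and rho = 0.70 (p = 0.043, adjusted p = 0.41), with r = 0.73 without CTRL 3 and Emul 1. Tbx3 and Bsx had r = 0.71 (exact permutation p = 0.035, adjusted p = 0.20) and rho = 0.57 (p = 0.12, adjusted p = 0.41), but 0.19 in the authors' log2 CPM table. Nr5a1 and Fezf1, both VMH factors, had r of only 0.24 (exact permutation p = 0.54, adjusted p = 0.77) and rho of 0.17 (p = 0.68, adjusted p = 0.90).

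**Figure D3:**
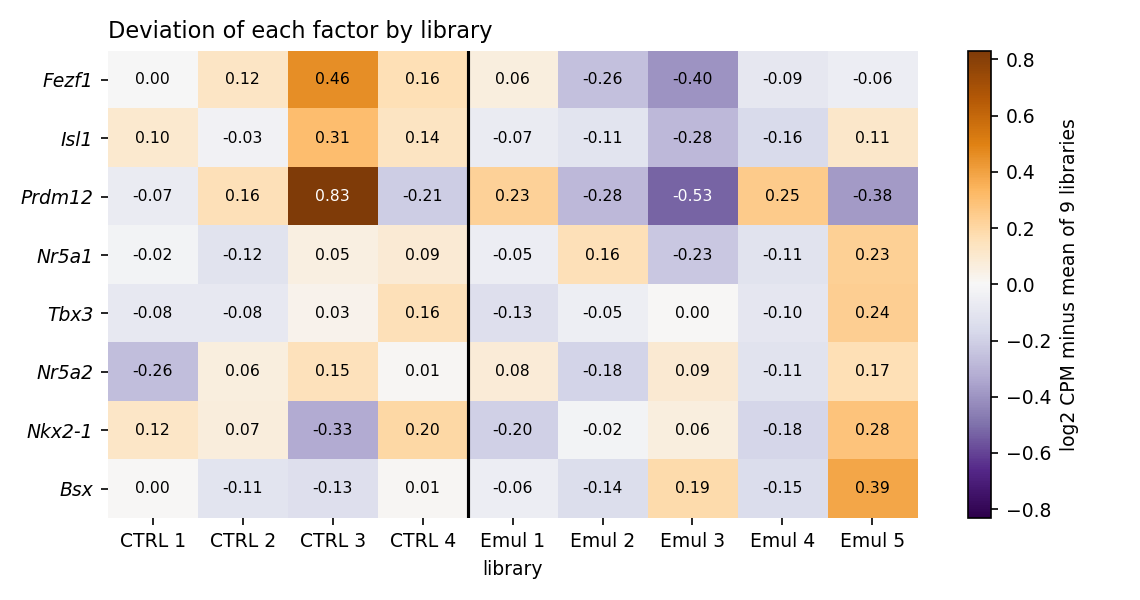
Log2 CPM of each factor (rows) minus its mean over the 9 libraries (columns, CTRL left of the black line), with orange above and purple below the mean. Fezf1, Isl1 and Prdm12 are highest in CTRL 3 and lowest in Emul 3, while Nkx2-1 is lowest in CTRL 3, and Nkx2-1, Bsx, Tbx3, Nr5a1 and Nr5a2 are highest in Emul 5.

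The genes whose log2 CPM most resembled a factor over the 9 libraries were taken from all genes tested, with r given as a description. The values share libraries, depth and dissection. The highest of so many r values over 9 libraries are high by selection, and none was tested. For Nkx2-1 the leading gene was Foxb1, a forkhead factor of the mammillary region, with r = 0.95, followed by Cdh20 with 0.94 and Lmbrd1 with 0.93. For Prdm12 the leading genes were Tnfsf13b with r = 0.98 and Alg6 and Dlx6 with 0.97 each, and for deviations from the group means Oxt, the oxytocin gene of the paraventricular nucleus, was second with 0.98. For Nr5a1 they were Gm266 and the tachykinin gene Tac1, each with r = 0.95, and Arf1 with 0.94. Fezf1 was most like Tmem181c-ps, Tmem201 and Dram1 (r of 0.95, 0.95 and 0.95). For Tbx3 the genes were Pxylp1, Igsf1 and Smad3, and for Bsx Tll2, Reck and Dpysl5, with r between 0.93 and 0.96.

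Transcripts were examined as shares of each gene's estimated counts, which do not depend on the level of the gene. The 8 genes have 25 annotated transcripts, and 13 transcripts of 5 genes held over 5% of their gene's counts, while Fezf1, Prdm12 and Bsx have 1 transcript each. At an adjusted p-value under 0.05 the count of changed shares was 0 of 13. Nr5a1-203, which retains an intron, was the 1 share past an unadjusted exact permutation p-value under 0.05. Of Nr5a1 counts it held 10.1 ± 1.34% (SD, n = 4) for CTRL and 8.06 ± 1.04% (SD, n = 5) for Emul (exact permutation p = 0.040, adjusted p = 0.47). No share passed without CTRL 2, Emul 1, Emul 2, Emul 4 or Emul 5. Most Nr5a1 counts lay on Nr5a1-202 and Nr5a1-201, which share their coding part of 1386 bases and differ in a first exon that holds no coding bases, at 38712006 to 38712234 and at 38714357 to 38714542. Nr5a1-201 held 19.7, 27.5, 23.5 and 13.7% in CTRL 1 to 4, and in Emul it ranged from less than 0.1% in Emul 1 to 28.6% in Emul 4. The means of 21.1 ± 5.85% (SD, n = 4) and 13.5 ± 10.4% (SD, n = 5) did not differ beyond this spread (exact permutation p = 0.22, adjusted p = 0.48). For Nkx2-1, the transcript with an added noncoding first exon of 600 bases, Nkx2-1-201, held 25.5, 25.6, 14.2 and 29.2% in CTRL 1 to 4 and 25.0 to 30.3% in Emul. CTRL 3, where Nkx2-1 itself was lowest, stood apart, and the groups did not differ beyond the spread (exact permutation p = 0.15, adjusted p = 0.47). For Nr5a2, the share of Nr5a2-201 was 83.6 ± 12.0% (SD, n = 4) for CTRL and 80.3 ± 7.53% (SD, n = 5) for Emul (exact permutation p = 0.64, adjusted p = 0.77), on few counts.

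Tbx3 showed the widest variation among transcripts. Tbx3-201 includes a coding exon that Tbx3-202 and Tbx3-203 lack, at chr5:119675243-119675302 on the plus strand, which adds 60 bases or 20 codons. It is shown, from the GENCODE M21 transcript, with the exon in capitals and 15 bases of the transcript on each side in lower case.
Tbx3-201 exon 3: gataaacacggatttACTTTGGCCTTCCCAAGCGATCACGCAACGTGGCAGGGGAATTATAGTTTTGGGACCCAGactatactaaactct
The share of Tbx3-201 was 16.3, 44.8, 21.8 and 31.1% in CTRL 1 to 4 and 42.9, 21.3, 11.7, 28.2 and 13.7% in Emul 1 to 5. High and low libraries occurred in both groups, and the means of 28.5 ± 12.4% (SD, n = 4) and 23.5 ± 12.6% (SD, n = 5) did not differ beyond this spread (exact permutation p = 0.53, adjusted p = 0.77). The other main transcripts traded counts with each other, with Tbx3-202 between 7.05% and 63.9% and Tbx3-203 between 13.0% and 59.0% over the 9 libraries. Kallisto divides reads that match several transcripts by an estimate, and the error of that division was not measured.

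Isl1 was carried mainly by Isl1-201, which held 77.1 ± 3.46% (SD, n = 4) of its counts for CTRL and 77.7 ± 1.79% (SD, n = 5) for Emul (exact permutation p = 0.71, adjusted p = 0.77). In Isl1-202 exon 5 starts later and lacks its first 69 coding bases, or 23 codons, at chr13:116301710-116301778 on the minus strand, and the annotated transcript is shorter at both ends (1198 against 2516 bases). Isl1-202 lay below the 5% limit and was examined after its values had been seen. The stretch of exon 5 that tells both apart is shown in capitals, with 15 bases of the transcript on each side.
Isl1-201 exon 5, start: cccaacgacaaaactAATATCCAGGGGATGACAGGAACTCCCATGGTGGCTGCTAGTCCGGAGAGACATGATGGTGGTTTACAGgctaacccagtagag
In CTRL 1 to 4 Isl1-202 stood at 2.09, 1.501, 1.57 and 2.92 TPM, and in Emul 1 to 5 at 0.560, 1.098, 0.858, 1.31 and 1.04 TPM. Every Emul library lay below every CTRL library, at means of 0.972 ± 0.281 (SD, n = 5) and 2.02 ± 0.654 TPM (SD, n = 4), and the exact permutation test gave p = 0.0079, the smallest it can give. This rests on 12.7 to 68.6 estimated counts per library, and the share of all transcripts that separated the groups was not counted. Isl1-201 was also lower, with 14.1, 14.6, 16.9 and 15.4 TPM in CTRL and 12.6, 11.96, 10.5, 12.1 and 14.2 TPM in Emul (exact permutation p = 0.024). These TPM values carry no TMM scaling, and Nr5a1, with a log2 fold change of -0.0020, had mean TPM of 13.2 for CTRL and 12.2 for Emul. On estimated counts, not scaled for depth, the groups overlapped for both transcripts. The exact permutation test there gave p = 0.056 for Isl1-202 and p = 0.35 for Isl1-201. As a share of the counts of both transcripts, Isl1-202 took 5.52 ± 1.77% (SD, n = 4) for CTRL and 3.39 ± 0.978% (SD, n = 5) for Emul, a change of -2.13 percentage points (exact permutation p = 0.056). That difference ranged from -1.39 points without CTRL 4 to -2.68 points without CTRL 3. A shift between both transcripts, beyond the lower level of the gene, therefore did not pass on counts. As a share of TPM the difference was -4.29 points (exact permutation p = 0.048). None of these p-values is adjusted.

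**Figure D4:**
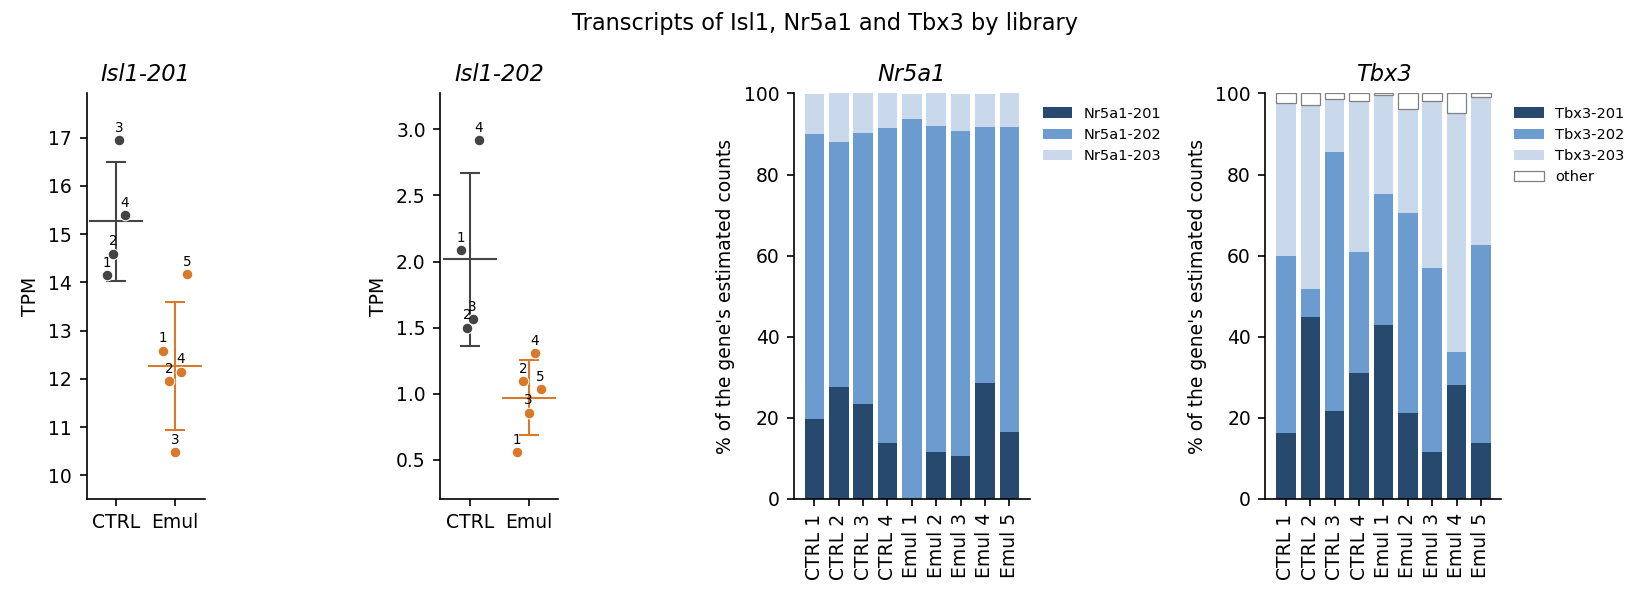
The left panels give TPM (vertical axes, not starting at 0) of Isl1-201 and Isl1-202 in CTRL and Emul libraries, with points numbered by replicate and bars at the mean ± SD. The right panels give, for each library, the share of estimated counts on each transcript of Nr5a1 and Tbx3. All Emul libraries lie at or below 1.31 TPM for Isl1-202 and all CTRL libraries at or above 1.501 TPM, while shares of Tbx3 transcripts vary widely within both groups.

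Other transcription factors of the tuberal hypothalamus were taken as a list of 21 genes, of which 20 were tested. In this list 6 of 20 were lower at an unadjusted p-value under 0.05, beside the 8.99% of all genes, 0 of 20 were higher and 0 of 20 passed after adjustment. The median log2 fold change was -0.17, and 2 of 20 had every Emul library below every CTRL library, beside 3.8% of all genes. Sox2, a factor of neural progenitors and glia, had a log2 CPM of 5.52, 5.47, 5.67 and 5.50 in CTRL and of 5.33, 5.27, 5.25, 5.36 and 5.11 in Emul. Its groups did not overlap, and its log2 fold change was -0.26 (SE 0.055, limma-voom adjusted p = 0.10). Gsx1, a homeodomain factor needed for growth hormone-releasing hormone neurons, also separated, at 1.36, 1.45, 1.62 and 1.81 against 1.28, 1.23, 0.74, 1.06 and 1.07, and its log2 fold change was -0.49 (SE 0.14, limma-voom adjusted p = 0.16). The other lower genes were Nkx2-2 at -0.24, Dlx5 at -0.42, Six3 at -0.36 and Dlx2 at -0.32 (adjusted p between 0.23 and 0.30 from limma-voom), the Dlx genes being factors of inhibitory neurons. This count fell to 2 with both CTRL 3 and Emul 3 left out, when Sox2 and Gsx1 remained, to 2 with the replicate number as a block, and to 3 without CTRL 1, CTRL 3, Emul 3 or Emul 5. It rose to 9 without Emul 1 or Emul 4.

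Among 7 paralogs of the members, 6 were tested and 1 was lower, beside 8.99% of all genes. This was Nkx2-2, also counted among the other tuberal factors above. It lost its call with counts scaled from TPM and transcript length and in the authors' log2 CPM table. The call was also lost with the replicate block and without both CTRL 3 and Emul 3. The median log2 fold change was -0.04, and 5 of 6 had a negative sign, beside 7552 of all 15340 genes tested. Nkx2-4 and Tbx2, relatives of Nkx2-1 and Tbx3, had log2 fold changes of -0.03 and -0.04 (adjusted p = 0.94 and 0.89 from limma-voom). Fezf2, the relative of Fezf1, stood at -0.04 (adjusted p = 0.92 from limma-voom), so the value of Fezf1 was not seen in its paralog, though the difference was not tested.

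Few genes that mark the nuclei or lie downstream of the factors passed the test. Of 10 VMH markers 0 were lower and 1 was higher, beside 8.99% and 6.84% of all genes, with a median log2 fold change of 0.01. By edgeR, without Emul 4, or with counts scaled from TPM and transcript length, 2 were higher. Of all genes, 1092 of 15339, 1267 of 15291 and 868 of 15346 were higher in these settings. The 1 higher by limma-voom was Bdnf, a growth factor that restrains feeding. It stood at 4.71, 4.81, 4.41 and 4.90 log2 CPM in CTRL and 4.84, 5.10, 5.11, 4.84 and 5.30 in Emul, with overlap. Its log2 fold change was 0.31 (SE 0.11, limma-voom adjusted p = 0.21). Adcyap1, which encodes the peptide PACAP, had a log2 fold change of 0.23 (adjusted p = 0.32 from limma-voom), Dlk1 of -0.06 (adjusted p = 0.55) and Nptx2 of 0.08 (adjusted p = 0.62). Among 14 reported targets of NR5A receptors 9 were tested, 0 were lower and 1 was higher, again Bdnf, and the median was -0.01. Scarb1, Crhr2 and Fdx1, for a lipoprotein receptor, a urocortin receptor and an electron carrier of steroid synthesis, had values of -0.07, -0.17 and 0.07 (adjusted p between 0.53 and 0.62 from limma-voom).

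Isl1, Tbx3, Prdm12 and Bsx are known to act on some arcuate peptide genes. The list of arcuate peptide and enzyme genes was not limited to their targets. It includes the transporter gene Slc6a3, which ranged from 2.04 log2 CPM in CTRL 3 to 6.46 in CTRL 4. By limma-voom 0 of 10 genes tested from this list were lower and 0 of 10 higher, beside 8.99% and 6.84% of all genes. There was 1 higher by edgeR or without Emul 4, and 1 lower without CTRL 3. The median log2 fold change was -0.02. Pomc, the precursor of melanocortins, stood at 3.94, 4.28, 4.39 and 4.84 log2 CPM in CTRL and at 3.87, 4.19, 4.11, 4.13 and 4.44 in Emul. The groups overlapped, and the log2 fold change was -0.23 (SE 0.16, limma-voom adjusted p = 0.50), close in size to that of Isl1 but with a larger error. Npy, a hunger peptide, was at 5.51, 5.31, 5.44 and 5.39 in CTRL and at 5.70, 5.70, 5.59, 5.28 and 6.20 in Emul, and its log2 fold change was 0.28 (SE 0.14, limma-voom adjusted p = 0.35). Emul 5 was the highest library for Npy, as it was for Bsx and also for Nkx2-1, Tbx3, Nr5a1, Nr5a2 and Agrp. Emul 1 and Emul 2 came next for Npy, at 5.70 each, with Bsx at 3.74 and 3.65 log2 CPM. Agrp and Cartpt had log2 fold changes of 0.11 and -0.10 (adjusted p = 0.72 and 0.55 from limma-voom).

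Markers of adjoining regions also varied between libraries. Some were highest or lowest in the same library as a factor, and others were not. Of 3 lateral hypothalamus markers 2 were lower, beside 8.99% of all genes. These were Hcrt, the orexin gene, with a log2 fold change of -0.70 and Pmch, the melanin-concentrating hormone gene, with -0.32 (adjusted p = 0.19 for both from limma-voom). Of 6 suprachiasmatic markers 4 were tested and 1 was lower, beside the same 8.99%. This was Vip, with a log2 fold change of -1.501 (adjusted p = 0.24 from limma-voom). Its lowest levels were 0.42, 0.17 and -0.17 log2 CPM in Emul 2, 3 and 5. Hcrt and Pmch were also lowest in Emul 5, at 5.22 and 7.83 log2 CPM, where Nkx2-1, Bsx, Tbx3, Nr5a1 and Nr5a2 were highest. The count of lower suprachiasmatic markers was 0 by edgeR, 2 with library size alone or without Emul 4, and 3 with counts scaled from TPM and transcript length. Of all genes, 1371 of 15339 were lower by edgeR and 2248 of 15340 with library size alone. Without Emul 4 they were 1388 of 15291, and with the scaled counts 1166 of 15346. Of 6 thalamus markers 0 passed by limma-voom, with a median log2 fold change of 0.64, while 4 were higher by edgeR or without Emul 4 and 3 by DESeq2. Of all genes, 1092 of 15339 were higher by edgeR, 1267 of 15291 without Emul 4 and 1081 of 15340 by DESeq2. Tcf7l2 was highest in Emul 3, at 6.37 log2 CPM against 4.37 to 5.17 in CTRL. Oxt, of the paraventricular nucleus, was highest in CTRL 3, at 6.91 log2 CPM, and lowest in Emul 3, at 4.16, as were Fezf1, Isl1 and Prdm12. Foxb1, of the mammillary region, was lowest in CTRL 3, at 3.37 log2 CPM against 4.14 to 4.44 in the other CTRL libraries, as was Nkx2-1. Among the other lists 0 genes passed in either direction for paraventricular (5 tested, median -0.07), mammillary (6 tested, median 0.34), telencephalon (4 tested, median 0.10), pituitary (4 tested, median -0.10) and tanycyte markers (6 tested, median -0.05). Without Emul 4, 1 paraventricular marker was lower, and 1 pituitary marker was lower without CTRL 3 or with library size alone. The part of these regions in the values of Fezf1 and Isl1 was not tested.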

How the data were processed

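RNAseq of the MBH covered 4 CTRL and 5 Emul libraries, grouped by the sample labels. The submitters' processing notes name FastQC 0.11.9, kallisto 0.46.1, edgeR 3.40.1 and mm10. The authors deposited kallisto estimated counts, which are not normalized, and TPM for 119414 transcripts per library, and a log2 CPM table of 14593 rows, on a log2 scale already, of which 1 has no gene name. Transcripts were matched to GENCODE M21 (97.8% matched, with 1.20% to 1.27% of counts unmatched and left out), and their estimated counts were summed per gene. Only edgeR and DESeq2 were given rounded values.

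The filter kept genes whose CPM exceeded 1 in 4 libraries or more, and groups were compared by limma-voom (limma 3.58.1, R 4.3.3) with TMM scaling and Benjamini-Hochberg adjustment. Log2 CPM used a prior count of 2, and 95% intervals come from the limma-voom fit. Single values were compared by two-sided exact permutation tests. P-values measure the spread between libraries, and the labels do not say which litter each library came from. No pair of libraries within a group agreed within counting noise (lowest chi-square per gene 7.49).

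Alternatives included edgeR 4.0.16, DESeq2 1.42.0, other scalings and filters, the authors' table, the replicate block and each library left out. The tests were checked on simulated counts. Members and gene lists were chosen with earlier results of these data known. Genes named are all members, the 3 genes most like each (not reported here for Isl1 and Nr5a2), and list genes past an unadjusted p-value under 0.05 or, failing 4 of these, those with the smallest p-values. Other regions' genes were named for their level or, for Oxt, Tcf7l2 and Foxb1, after their values were seen. Isl1-202, the differences between members, the promoter windows of Fezf1 and Isl1 and the fit without both CTRL 3 and Emul 3 were also chosen then.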

Additional observations from a re-analysis of the deposited data

Results flagged for a closer look

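The log2 difference of Isl1 minus Nkx2-1 in CTRL 3 was 0.23, far from the other CTRL libraries, which lay between -0.51 and -0.43. The gap to its nearest neighbour, as a fraction of the range over CTRL, was 0.89, above the 0.829 that Dixon's rule sets for 4 libraries. Isl1 was thus above Nkx2-1 in CTRL 3 alone among all 9 libraries on the log2 CPM scale. This was 1 of 54 groups of values examined, of which chance would flag about 2.7.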

How the results depend on the processing

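Over 23 alternatives, the log2 fold change of Fezf1 ranged from -0.37 to -0.18 and passed an unadjusted p-value under 0.05 in all 23 (adjusted p from 0.065 to 0.40). That of Isl1 ranged from -0.27 to -0.13 and passed in 22 (adjusted p from 0.12 to 0.48), the exception being the fit without both CTRL 3 and Emul 3, added after the data were seen, which gave -0.13 and lowered the count of lower members from 2 to 1. With the replicate block, Fezf1 was at -0.34 and Isl1 at -0.27, both still past an unadjusted p-value under 0.05. Deviations of same-numbered libraries correlated between -0.16 and 0.02, so no likeness by replicate number was seen. Libraries with different numbers were not compared in this way, and whether same-numbered libraries shared a batch was not tested. With single libraries left out, the count of members without overlap between groups ranged from 0 to 1 (Fezf1 without CTRL 1 or Emul 1, Isl1 without Emul 5). In each case the library left out was one that had made the groups overlap. The share of all genes without overlap in these fits was not counted, so these counts have no background.

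Of the 6 factors without a call, 5 changed sign in at least 1 alternative, while Bsx stayed between 0.0057 and 0.14 over 23. Nr5a1 was 0.0063 by edgeR, 0.0080 by DESeq2, 0.00075 without mitochondrial genes, 0.065 without both CTRL 3 and Emul 3, and -0.055 to 0.051 with single libraries left out. Nkx2-1 ranged from -0.15 to 0.0084 and Tbx3 from -0.078 to 0.038 with single libraries left out, and Tbx3 was 0.0038 in the authors' table. Nr5a2 was -0.011 with library size alone, -0.028 with the replicate block and -0.066 to 0.067 with single libraries left out. Prdm12 was 0.0060 without both CTRL 3 and Emul 3. The cause was not tested.

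The count of other tuberal factors that were lower was 3 with sample quality weights, 2 with the replicate block, 2 without both CTRL 3 and Emul 3, and 3 to 9 with single libraries left out. Pairs of members past an unadjusted p-value under 0.05 went from 5 to 2 without the 2 libraries farthest from the median. All 5 lost their call, and the 2 were others, Nkx2-1 and Tbx3 (r = 0.80, exact permutation p = 0.026) and Isl1 and Bsx (r = 0.69, exact permutation p = 0.034). Changed transcript shares ranged from 0 to 1 with single libraries left out, and were 0 in 5 of 9 such fits. With library size alone, 517 genes were higher and 2248 lower at an unadjusted p-value under 0.05, against 1049 and 1379 with TMM, and the median of all genes moved by -0.03. Genes past adjustment numbered 341 by DESeq2, 32 by edgeR and 18 by limma-voom. Counts of 82.0 to 112 for Nr5a2 and 70.5 to 147 for Prdm12 limit what these genes can show.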
